A study of Mus musculus with 20 samples.

Results

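Heat shock proteins and chaperonins were followed through mouse oocyte maturation and the first cleavage. The genes were all those whose symbol in the deposited tables begins with Hspa, Hspb, Hspd, Hspe, Hsph or Hsp90, is Tcp1 or Cct2 to Cct8, or names a J-domain protein of class A, B or C (Dnaja, Dnajb, Dnajc). This pattern took 83 of 23309 symbols. They comprise 14 HSP70 and HSP110 genes, 3 HSP90 genes, the 2 subunits of the mitochondrial chaperonin and 8 genes named as small heat shock proteins. Of these 8, Hspb11 acts in ciliary transport. There are also 9 genes of the cytosolic chaperonin ring CCT and 45 J-domain genes (4 of class A, 13 of class B and 28 of class C). The pattern also took 2 names outside these families, Hspbp1, an exchange factor of HSP70, and Hspbap1.

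Chaperones bind unfolded stretches of other proteins and release them for folding. HSP70 proteins do so in cycles of ATP hydrolysis that J-domain proteins start and that nucleotide exchange factors, HSP110 among them, reset. HSP90 takes over clients such as kinases and receptors from HSP70, and CCT encloses actin, tubulin and other proteins in a chamber built of different subunits. BiP (Hspa5), Grp94 (Hsp90b1) and several J-domain proteins serve the endoplasmic reticulum, and Hspa9, Hspd1 and Hspe1 serve the mitochondrion. Heat shock factor 1 is the transcription factor that raises many of these genes under stress. A growing oocyte stores mRNA, translates and degrades it without new transcription during maturation, and the embryo starts transcription of its own genome around the 2-cell stage in the mouse, when inducible Hsp70 genes are among the first to be transcribed.

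The RNA-seq libraries came from mice of the ICR strain. One experiment compared libraries labelled Btg4-/- with wild type in germinal vesicle (GV) oocytes, which are arrested in the first meiotic prophase, in mature oocytes arrested in the second metaphase (MII), in zygotes and in 2-cell embryos, with 2 libraries in each of 8 groups. Btg4 encodes an adaptor that brings the CCR4-NOT deadenylase to mRNAs and is needed for their clearance during maturation. The other experiment compared GV and MII oocytes labelled Erk-/- with wild type, with 1 library in each of 4 groups. Females were 21 to 23 days old and had been given PMSG and hCG, with mating where embryos were collected, and each sample pooled 60 oocytes or embryos. The labels do not describe the Btg4 or Erk alleles or any Cre driver, and do not say whether the 2 libraries of a group came from separate animals. P-values therefore reflect the spread of these libraries alone, and that spread may be technical. Values are FPKM, fragments scaled to transcript length and to the mapped fragments of the library, so a change in a transcript and a change in the total mRNA of a sample cannot be told apart.

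The estimated depth ranged from 2910000 to 5330000 fragments for the Btg4 libraries. For the Erk libraries it ranged from 6150000 to 8750000. Btg4 itself was at 1450 and 1673 FPKM in wild-type and 1980 and 1881 in Btg4-/- GV oocytes, and at 415 and 406 against 172 and 191 at MII. In zygotes it was at 610 and 559.5 against 139 and 164, and in 2-cell embryos at 1147 and 964 against 3514 and 3632. The gene-level value is therefore no check of these labels, and every direction below rests on them. Of 12 oocyte markers, all were detected in every group apart from Figla in wild-type 2-cell embryos. Of the 83 genes, 71 reached a group mean of at least 1 FPKM in the Btg4 experiment and entered the tests, among 12311 symbols in all. The other 12 were Cct6b, Dnajb5, Dnajb7, Dnajb8, Dnajc6, Dnajc22, Dnajc28, Hspa1l, Hspa12b, Hspb2, Hspb3 and Hspb7, of which Dnajb7, Dnajb8, Hspb2, Hspb3 and Hspb7 were listed at 0 in every library. Cct6b, the subunit known from testis, did not exceed 1.04 FPKM in any library.

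The promoters of 3 genes are shown because these genes were lower in Btg4-/- than in wild-type 2-cell embryos, with values given further down: the inducible HSP70 genes Hspa1a and Hspa1b, and Hspa5. Sequences are those of RefSeq on GRCm38.p6, 5′ to 3′ on the strand of the gene. Capitals mark the motif GAANNTTC, in which inverted repeats of the heat shock element meet, and CCAAT or its reverse complement ATTGG. Hspa1a, chr17:34972157-34972406, minus strand, is the stretch that ends at the gene's start.
Hspa1a: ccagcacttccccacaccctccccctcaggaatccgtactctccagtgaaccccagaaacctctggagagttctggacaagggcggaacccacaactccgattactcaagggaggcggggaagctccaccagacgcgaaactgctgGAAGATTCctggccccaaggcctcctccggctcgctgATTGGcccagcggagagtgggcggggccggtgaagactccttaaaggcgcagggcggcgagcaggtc
Hspa1b, chr17:34959239-34959488, minus strand, is the same stretch of the neighbouring copy.
Hspa1b: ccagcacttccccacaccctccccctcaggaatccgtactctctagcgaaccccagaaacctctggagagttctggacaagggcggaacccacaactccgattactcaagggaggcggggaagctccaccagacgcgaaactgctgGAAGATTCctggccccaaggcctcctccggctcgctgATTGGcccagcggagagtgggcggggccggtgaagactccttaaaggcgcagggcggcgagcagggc
Hspa5, chr2:34771840-34771969, plus strand, is the part that lies before the first exon of the GENCODE annotation.
Hspa5: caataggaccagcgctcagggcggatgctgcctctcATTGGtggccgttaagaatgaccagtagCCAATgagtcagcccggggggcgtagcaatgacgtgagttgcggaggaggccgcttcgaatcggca
The Hspa1a and Hspa1b stretches of 250 bases differed at 3 bases, and in both GAAGATTC began 104 bases before the start. Of all 50-base windows in the longest reading frame of Hspa1a, 82.3% occurred unchanged in that of Hspa1b, so reads can be shared between these copies and their single FPKM values are uncertain. Promoter entries were found for 68 of the 83 genes.

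All 3 HSP90 genes were high in wild-type MII oocytes and zygotes and lower in Btg4-/-, and Hsp90aa1 had the highest mean level of the family over the Btg4 experiment. Hsp90aa1, the inducible cytosolic form, was at 46.3 and 56.5 FPKM in wild-type GV oocytes, 1265 and 1324 at MII, 1602 and 1792 in zygotes, and 76.9 and 72.3 in 2-cell embryos. In Btg4-/- samples it was at 52.2 and 49.1, 283 and 294, 402 and 427, and 137 and 129 FPKM at the same stages. The genotypes overlapped at GV and lay far apart at MII and in zygotes. The log2 change of Btg4-/- against wild type was -2.16 ± 0.11 (SE; adjusted p = 9.6e-09) at MII and -2.03 ± 0.11 (adjusted p = 3.19e-08) in zygotes. From GV to MII in wild type it rose by 4.63 ± 0.11 (adjusted p = 1.66e-11), and from zygote to 2-cell it fell by 4.49 ± 0.11 (adjusted p = 3.53e-11). At the 2-cell stage Btg4-/- was higher by 0.83 ± 0.11 (adjusted p = 5.67e-05), a call that ended with quantile normalization (adjusted p = 0.06).

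Hsp90ab1, the constitutive cytosolic form, had a similar course at a lower level. Wild type read 17.1 and 18.9, 60.2 and 65.7, 78.4 and 90.6, and 43.8 and 39.8 FPKM from GV to 2-cell, and Btg4-/- read 17.9 and 20.0, 12.7 and 13, 23.7 and 32.3, and 35.4 and 39.1. Its change in Btg4-/- was -2.21 ± 0.16 at MII (adjusted p = 1.91e-07) and -1.57 ± 0.16 in zygotes (adjusted p = 5.37e-06). Hsp90b1, the form of the endoplasmic reticulum, varied more between libraries, with 54.1 and 88.9 FPKM in wild-type MII, 86.3 and 159 in wild-type zygotes, and 6.07 and 11.2, then 4.53 and 12.5, in Btg4-/-. It was lower in Btg4-/- by 2.92 ± 0.49 on the log2 scale at MII (adjusted p = 0.000251) and by 3.77 ± 0.49 in zygotes (adjusted p = 3.96e-05). Thus 3 of 3 HSP90 genes were lower in Btg4-/- at both stages, under each scaling and with any single library left out. Summed over the 3 genes, HSP90 took 0.386% and 0.389% of all FPKM in wild-type MII and 0.499% and 0.593% in wild-type zygotes, against 0.0632% and 0.0675%, and 0.101% and 0.116%, in Btg4-/-.

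**Figure D1:**
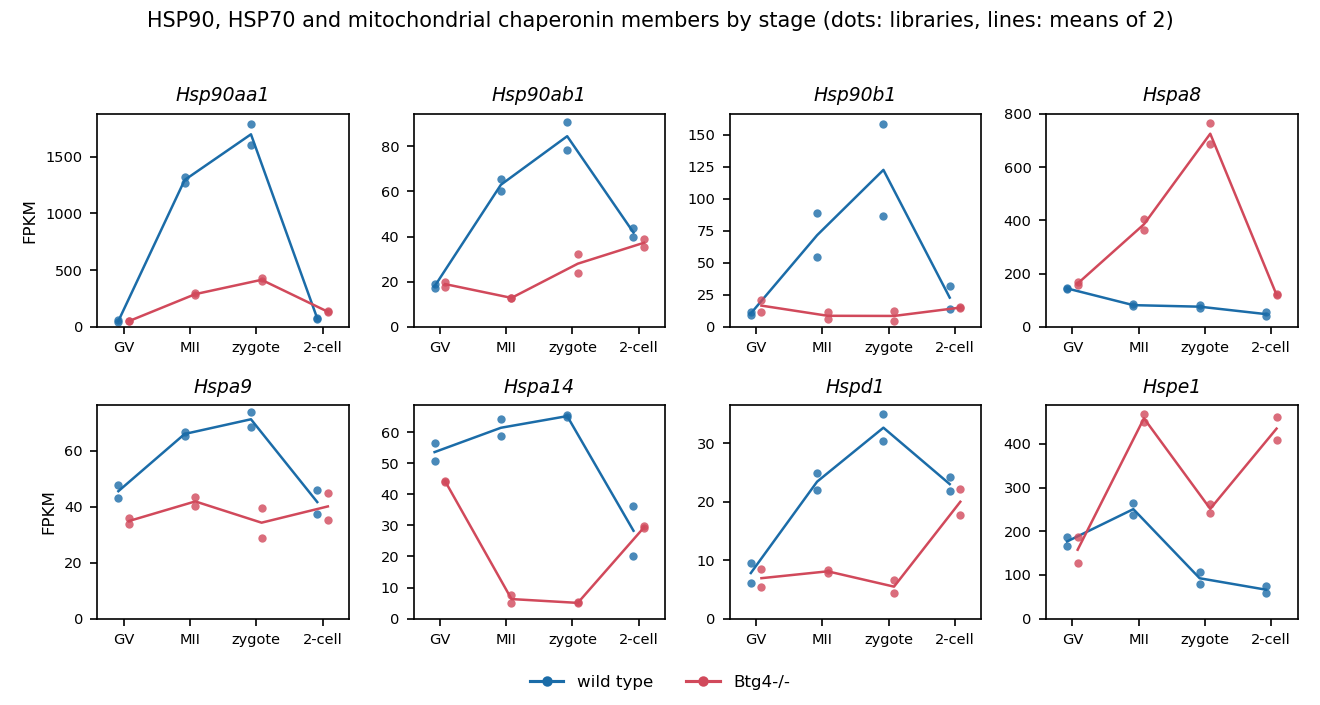
FPKM of 3 HSP90 genes, 3 HSP70 genes and the 2 mitochondrial chaperonin subunits by stage, wild type in blue and Btg4-/- in red, with a dot for each library and a line through the means of 2. Hsp90aa1 climbs to 1602 and 1792 FPKM in wild-type zygotes and to 402 and 427 in Btg4-/-, whereas Hspa8 reaches 686 and 764 FPKM in Btg4-/- zygotes and is at most 146 in wild type.

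CCT subunits did not share one course, although each ring is built from them. Cct5 was at 204 and 224 FPKM in wild-type GV oocytes and at 20.9 and 18.2 at MII, and it stayed at or below 31.5 in zygotes and 2-cell embryos. In Btg4-/- it was at 201 and 182, 387 and 384, 426 and 436, and 97.4 and 89.3 FPKM. The genotypes did not pass at GV (adjusted p = 0.618) and lay far apart at every later stage. Its log2 change in Btg4-/- was 4.24 ± 0.15 at MII (adjusted p = 5.36e-10), 3.77 ± 0.15 in zygotes (adjusted p = 1.74e-09) and 2.56 ± 0.15 at 2-cell (adjusted p = 2.58e-08). Cct2 read 66.5 and 68.9, 22.9 and 12.4, 30.2 and 30.5, and 15.2 and 16.4 FPKM in wild type, against 81.0 and 78.8, 167 and 189, 189 and 181, and 92.1 and 80.1 in Btg4-/-. Tcp1, which encodes the first subunit, read 39.1 and 35.4, 13.5 and 10.8, 19.6 and 18.7, and 10.4 and 14.5 in wild type, against 45.1 and 41.2, 103 and 112, 110 and 112, and 41.1 and 44.7. Cct2 was higher in Btg4-/- at MII by 3.32 ± 0.21 (adjusted p = 4.29e-08). Tcp1 was higher at MII by 3.04 ± 0.16 (adjusted p = 1.19e-08). Both were also higher in Btg4-/- zygotes and 2-cell embryos.

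Cct3 was higher in Btg4-/- at MII and in zygotes and lower at 2-cell. It was at 22.5 and 17.8 FPKM in wild-type and 95.4 and 99.8 in Btg4-/- MII oocytes, a change of 2.23 ± 0.17 (adjusted p = 2.68e-07), then at 63.8 and 50.6 against 106 and 100.4 in zygotes, a change of 0.85 ± 0.17 (adjusted p = 0.00123), and at 28.2 and 29.1 against 14.9 and 11 in 2-cell embryos, a change of -1.10 ± 0.17 (adjusted p = 0.000166). Cct7 and Cct8 took the opposite course in wild type: from GV to MII Cct7 rose from 11.8 and 15.5 to 35.5 and 35.3 FPKM (1.32 ± 0.18, adjusted p = 3.97e-05) and Cct8 from 34.8 and 33.3 to 70.3 and 81.9 (1.13 ± 0.12, adjusted p = 5.6e-06). At MII neither passed between genotypes, with Cct7 at 47.4 and 40.7 FPKM in Btg4-/- (adjusted p = 0.177) and Cct8 at 62.2 and 59.9 (adjusted p = 0.0505). Cct8 was lower in Btg4-/- zygotes, at 67.9 and 70.5 against 102 and 105 FPKM (-0.58 ± 0.12, adjusted p = 0.00183). Its locus overlaps Usp16, which read 82.9 and 122 FPKM in wild-type and 6.90 and 12.9 in Btg4-/- MII oocytes, and strand use in the counting is not given in the sources used here. The Cct7 locus overlaps Pradc1, which read 12.6 and 12.9 FPKM in wild-type and 120.7 and 123 in Btg4-/- MII oocytes. The Tcp1 locus overlaps Acat3, which read 3.51 and 1.47 against 14.8 and 13.7.

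Cct4 and Cct6a were the least abundant subunits tested at MII and were lower in Btg4-/- 2-cell embryos. Cct6a was at 3.89 and 3.40 FPKM in wild-type GV oocytes and below 0.6 at MII and in zygotes, then at 26.2 and 24.3 in wild-type 2-cell embryos against 0.491 and 1.48 in Btg4-/- (-3.77 ± 0.33, adjusted p = 1.13e-06). Cct4 was at 6.98 and 10.1 FPKM in wild-type and 1.75 and 4.88 in Btg4-/- 2-cell embryos (-1.23 ± 0.33, adjusted p = 0.00824), a call that ended without Btg4-/- 2-cell library 1 (adjusted p = 0.0973) or wild-type 2-cell library 2 (adjusted p = 0.0834). Over the 8 tested CCT genes, 4 were higher and 0 lower in Btg4-/- at MII, where 29.1% of all tested symbols were higher and 23.3% lower. In zygotes 5 were higher and 1 lower, against 24.4% and 23.3% of all symbols, and at 2-cell 4 were higher and 3 lower, against 22.6% and 26.4%. Cct8 passed as lower at MII under most alternatives, among them median-of-ratios scaling (-0.62, adjusted p = 0.000671) and quantile normalization (-0.65, adjusted p = 0.000426). Summed, the ring took 0.0531% and 0.0477% of all FPKM in wild-type MII and 0.182% and 0.189% in Btg4-/- MII, the reverse of the HSP90 order.

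**Figure D2:**
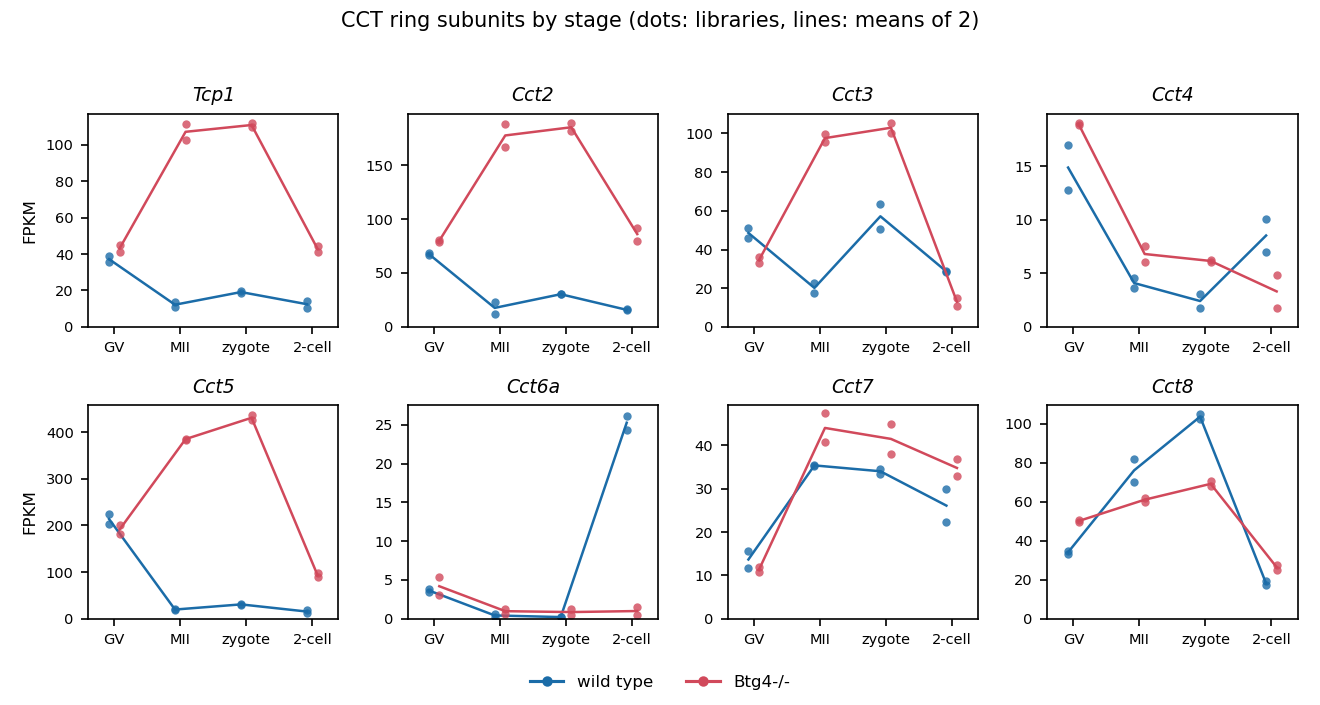
FPKM of the 8 tested CCT subunits by stage, wild type in blue and Btg4-/- in red, with a dot for each library and a line through the means of 2. Tcp1, Cct2, Cct3 and Cct5 lie far apart at MII, Cct7 and Cct8 lie close, and Cct6a is above 24 FPKM in wild-type 2-cell embryos and nowhere above 5.32 in the other groups.

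HSP70 genes went both ways. Hspa8, the constitutive cytosolic HSP70, fell in wild type from 143 and 146 FPKM at GV to 85.4 and 77.6 at MII, and stood at 71.3 and 80.3 in zygotes and 56.4 and 39.3 in 2-cell embryos. In Btg4-/- it was at 170 and 156, 363 and 407, 686 and 764, and 123 and 118 FPKM. Its log2 change in Btg4-/- was 2.23 ± 0.15 at MII (adjusted p = 9.36e-08), 3.24 ± 0.15 in zygotes (adjusted p = 8.04e-09) and 1.33 ± 0.15 at 2-cell (adjusted p = 1.18e-05). The wild-type fall at MII, by 0.82 ± 0.15 (adjusted p = 0.00052), ended with quantile normalization (adjusted p = 0.0599). Hspa14, a ribosome-bound HSP70, did the reverse: it was at 58.7 and 64.1 FPKM in wild-type and 7.63 and 4.98 in Btg4-/- MII oocytes (-3.12 ± 0.23, adjusted p = 2.24e-07), at 65.6 and 64.8 against 4.90 and 5.25 in zygotes (-3.45 ± 0.23, adjusted p = 1.56e-07), and at 20.2 and 36.4 against 29.1 and 29.7 in 2-cell embryos, where it did not pass (adjusted p = 0.735). Hspa9, the mitochondrial HSP70, was lower in Btg4-/- by 0.64 ± 0.17 at MII (65.1 and 66.9 against 40.4 and 43.4 FPKM, adjusted p = 0.00666) and by 1.05 ± 0.17 in zygotes (adjusted p = 0.000248).

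Hspa5 changed its order between genotypes during cleavage. It was higher in Btg4-/- at MII, at 34.5 and 40.3 FPKM against 16.1 and 19.2 (1.04 ± 0.23, adjusted p = 0.00179), and in zygotes, at 86.8 and 94.3 against 39.2 and 54.3 (0.96 ± 0.23, adjusted p = 0.00368). At 2-cell it was lower, at 6.46 and 9.96 against 49.8 and 54.4 (-2.55 ± 0.23, adjusted p = 1.33e-06). The remaining HSP70 and HSP110 genes were low or moderate. Hspa4 was at 4.29 and 4.41 FPKM in wild-type and 6.85 and 8.44 in Btg4-/- MII oocytes (adjusted p = 0.0599), and at 4.82 and 6.36 against 17.2 and 19.1 in zygotes, a change of 1.55 ± 0.28 (adjusted p = 0.000622). Hsph1, an HSP110 gene, was at 8.30 and 15.0 against 23.3 and 20.6 in zygotes (0.91 ± 0.33, adjusted p = 0.0388), which ended without Btg4-/- zygote library 1 (adjusted p = 0.156), Btg4-/- zygote library 2 (adjusted p = 0.0887) or wild-type zygote library 1 (adjusted p = 0.314). Hspa4l was at 4.43 and 7.71 against 2.99 and 3.42 at MII and did not pass (adjusted p = 0.166). In zygotes Hspa4l was lower in Btg4-/- (-1.26 ± 0.41, adjusted p = 0.022), a call that ended with a pseudocount of 0.1 (adjusted p = 0.0733) and with the groups compared alone (adjusted p = 0.063). It also ended after removal of a transcript length trend (adjusted p = 0.259). Hspa13 did not exceed 2.39 FPKM in the Btg4 experiment, and Hspa2, a gene known from spermatocytes, did not exceed 9.13. Of the 12 tested, 2 were higher and 4 lower in Btg4-/- at MII, against 29.1% and 23.3% of all symbols. In zygotes 5 were higher and 4 lower, against 24.4% and 23.3%, and at 2-cell 1 was higher and 4 lower, against 22.6% and 26.4%. At MII the split was 2 and 5 with median-of-ratios or quantile scaling.

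The paired mitochondrial chaperonin genes moved apart. Hspd1 and Hspe1 encode the large and small subunit of the same machine and lie next to each other on mm9 chromosome 1, at 55134678 to 55144776 and 55144992 to 55148161, with 215 bases between the loci. Hspd1 was at 21.9 and 25.0 FPKM in wild-type MII oocytes and 30.4 and 35.0 in zygotes, against 8.33 and 7.88, and 4.31 and 6.65, in Btg4-/- (-1.42 ± 0.26, adjusted p = 0.000441, and -2.40 ± 0.26, adjusted p = 7.35e-06). Hspe1 was at 237 and 265 FPKM in wild-type and 468 and 450 in Btg4-/- MII oocytes (0.87 ± 0.19, adjusted p = 0.00156), at 106 and 78.9 against 262 and 241 in zygotes (1.45 ± 0.19, adjusted p = 3.52e-05), and at 73.8 and 59.0 against 462 and 409 in 2-cell embryos (2.70 ± 0.19, adjusted p = 1.39e-07). The MII call of Hspe1 ended with quantile normalization (0.32, adjusted p = 0.144), and its sign turned when a trend on transcript length was removed (-0.14, adjusted p = 0.456). Processed copies of both genes are known elsewhere in the genome, and reads can be shared with them.

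J-domain proteins, the largest class, held some of the widest differences. Dnajc21, a ribosome biogenesis factor, rose in wild type from 5.94 and 8.85 FPKM at GV to 159 and 201 at MII (4.44 ± 0.18, adjusted p = 1.12e-09) and stood at 245 and 301 in zygotes, whereas Btg4-/- read 13.5 and 13.8 at MII and 28.0 and 32.4 in zygotes. It was the member with the largest negative change at MII, -3.62 ± 0.18 (adjusted p = 7.87e-09). Dnajc15, a gene of the mitochondrial import motor, was at 112 and 93.7 FPKM in wild-type GV oocytes and at 2.51 and 0 at MII, against 128 and 120, then 35.5 and 65.9, in Btg4-/-. It had the largest positive change at MII, 4.72 ± 0.54 (adjusted p = 9.94e-06), with a wider spread than most.

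Dnajb6, known for keeping polyglutamine proteins soluble, had the highest mean level of the J-domain genes over the Btg4 experiment with both genotypes pooled, although other J-domain genes were higher in each wild-type group. It was at 72.0 and 80.0, 144 and 146, 145 and 158, and 217 and 209 FPKM in wild type, against 65.2 and 56.7, 770 and 726, 422 and 431, and 617 and 553 in Btg4-/- (2.36 ± 0.11 at MII, adjusted p = 3.79e-09). Dnajb1, the main partner of cytosolic HSP70, fell in wild type from 129 and 129 FPKM to 31.5 and 32.0 at MII (-1.99 ± 0.13, adjusted p = 4.67e-08) and read 124 and 124 in Btg4-/- MII oocytes (1.93 ± 0.13 between genotypes, adjusted p = 7.16e-08). Dnajc11, of the mitochondrial outer membrane, fell likewise from 175 and 160 to 45.8 and 38.2 FPKM (-1.98 ± 0.16, adjusted p = 3.19e-07) and read 218 and 193 in Btg4-/- (2.27 ± 0.16, adjusted p = 1.07e-07). Dnajb2 was at 5.57 and 2.56 in wild-type and 51.9 and 42.2 FPKM in Btg4-/- MII oocytes (3.31 ± 0.42, adjusted p = 2.56e-05). Dnajb4 went the other way, with 182 and 183 against 43.7 and 45.1 FPKM at MII (-2.02 ± 0.10, adjusted p = 7e-09), 295 and 303 against 140 and 138 in zygotes, and 22.4 and 22.0 against 83.8 and 82.4 at 2-cell (1.86 ± 0.10, adjusted p = 1.83e-08).

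Class A genes split in the same way. Dnaja2 was at 169 and 180 FPKM in wild-type and 51.7 and 61.6 in Btg4-/- MII oocytes (-1.61 ± 0.12, adjusted p = 1.74e-07). Dnaja3, the mitochondrial member, was at 15.7 and 12.9 against 43.3 and 48.5 (1.62 ± 0.20, adjusted p = 2.13e-05). Dnaja1 and Dnaja4 did not pass at MII, at 23.9 and 25.8 against 17.8 and 26.2 FPKM (adjusted p = 0.457) and at 17.0 and 15.4 against 18.1 and 21.9 (adjusted p = 0.433). In zygotes Dnaja1 was lower in Btg4-/-, at 46.7 and 63.1 against 27.3 and 28.3 FPKM (-0.94 ± 0.20, adjusted p = 0.00152), and Dnaja4 did not pass (adjusted p = 0.0659). Both were higher in Btg4-/- 2-cell embryos, by 2.2 ± 0.20 (adjusted p = 1.35e-06) and 1.30 ± 0.28 (adjusted p = 0.00177). The Dnaja4 call ended with the groups compared alone (adjusted p = 0.0853). The Dnaja1 locus overlaps Smu1, which read 36.5 and 34.1 FPKM in wild-type and 117 and 120.2 in Btg4-/- 2-cell embryos.

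Class C genes named for their roles also divided. Dnajc7, a co-chaperone that binds both HSP70 and HSP90, was at 16.9 and 11.6 against 41.1 and 37.8 FPKM at MII (1.43 ± 0.20, adjusted p = 5.7e-05). Dnajc3, of the endoplasmic reticulum, was at 38.4 and 56.4 against 10.03 and 18.4 (-1.70 ± 0.35, adjusted p = 0.00128). Dnajc13, an endosomal protein, was at 3.98 and 7.53 against 0.334 and 0.537 (-2.19 ± 0.29, adjusted p = 3.66e-05). Dnajc2, which sits on the ribosome with Hspa14, was at 26.3 and 32.4 against 26.5 and 38.4 at MII and did not pass (adjusted p = 0.787), unlike Hspa14. In zygotes Dnajc2 was lower in Btg4-/-, as Hspa14 was (-1.07 ± 0.31, adjusted p = 0.012). That call ended with the groups compared alone (adjusted p = 0.0568), and the change was -0.76 without Btg4-/- zygote library 1. Dnajb11, an endoplasmic reticulum partner of Hspa5, was at 28.1 and 29.1 against 17.9 and 28.1 at MII (adjusted p = 0.305) and, like Hspa5, was lower in Btg4-/- at 2-cell, at 13 and 22.2 against 8.03 and 6.19 (-1.16 ± 0.26, adjusted p = 0.00244), a call that ended with the groups compared alone (adjusted p = 0.09).

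Over all 71 tested genes at MII, 24 were higher and 16 lower in Btg4-/-, where 29.1% of all tested symbols were higher and 23.3% lower, and the medians were 0.20 for the members and 0.09 for all symbols. The share of called members is near that background, so no difference of the family from other genes is read from it. The split of calls depended on scaling, with 22 higher and 22 lower under median-of-ratios scaling, 21 and 22 under quantile normalization, and 20 and 21 after removal of a transcript length trend. In zygotes 24 were higher and 19 lower, against 24.4% and 23.3% of all symbols. Blood cell markers stood apart at MII: of 7 in the files, the summed level was 85.0 and 50.3 FPKM in wild type, with Cd68 and Ptprc at 0, and 2.08 and 1.02 in Btg4-/-, with Ptprc at 0, and their part in these results was not tested.

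**Figure D3:**
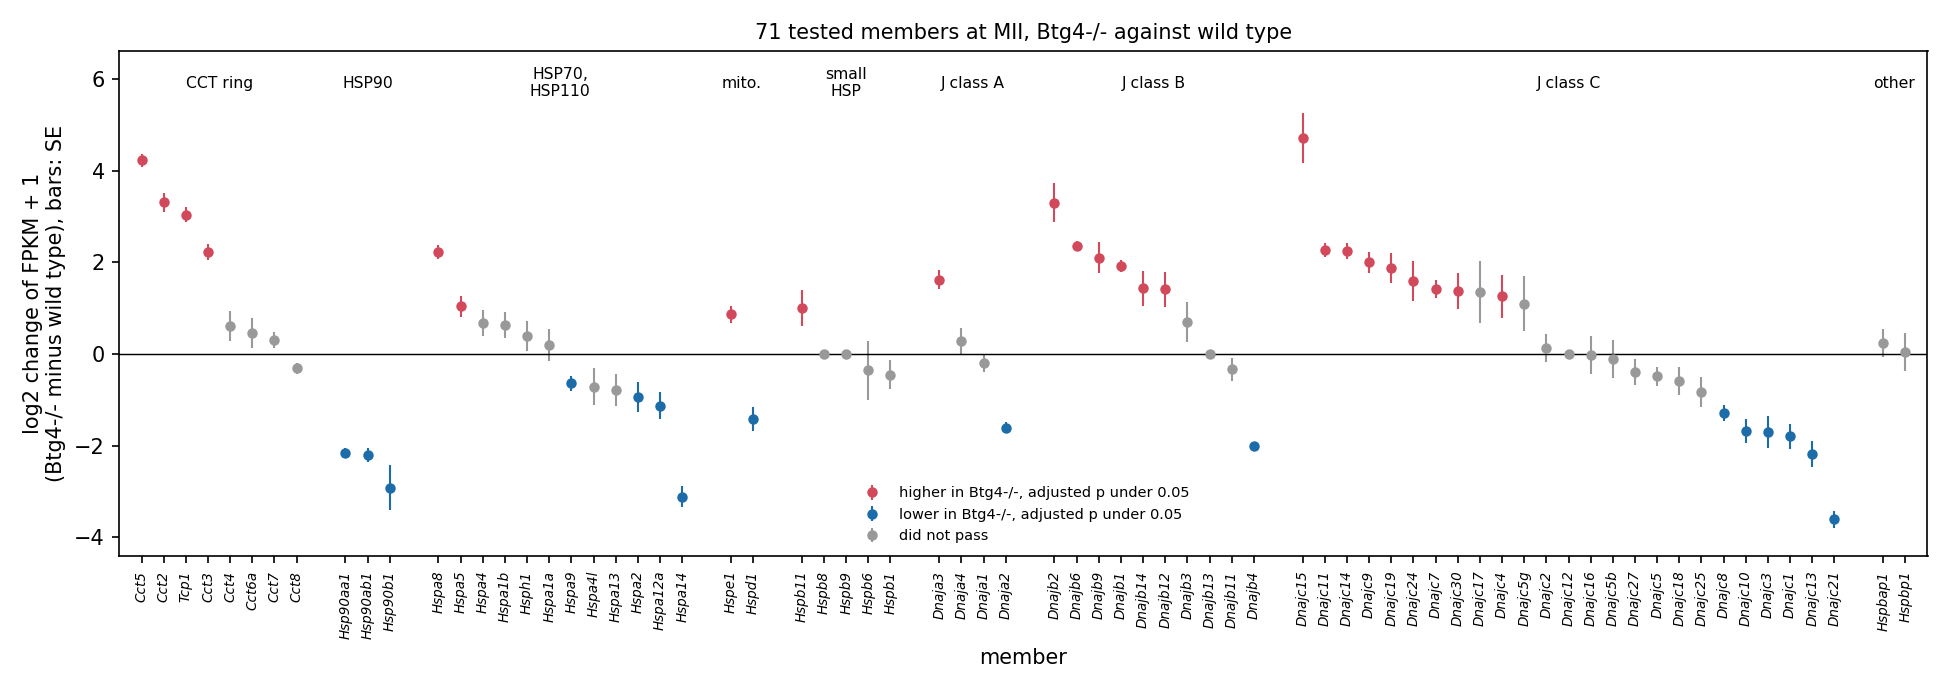
Log2 change of FPKM + 1 in Btg4-/- against wild-type MII oocytes for each of the 71 tested genes, grouped by role and sorted within it, with SE bars, red for higher, blue for lower and grey for not passed. All 3 HSP90 genes lie at -2.16 or below, 4 CCT subunits lie at 2.23 or above, and the J-domain genes spread from -3.62 to 4.72.

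At GV, before maturation, 3 members were higher and 2 lower in Btg4-/-, against 1.45% and 6.46% of all symbols. The 3 were Dnajb13 (2.28 and 0.781 FPKM against 0.203 and 0.271, adjusted p = 0.0281), Cct8 (50.5 and 49.7 against 34.8 and 33.3, adjusted p = 0.0192) and Dnajb4 (200 and 176 against 138 and 144, adjusted p = 0.0269). The 2 were Dnajc21 (3.89 and 4.34 against 5.94 and 8.85, adjusted p = 0.0369) and Dnajc11 (120 and 101 against 175 and 160, adjusted p = 0.0342). Dnajb13 entered the tests only through the Btg4-/- GV group (mean 1.53 FPKM), the group in which it was called higher. None of the 5 calls held in every setting. Each ended without 3 or 4 of the 4 GV libraries left out singly, with adjusted p from 0.071 to 0.286, and the 2 lower calls ended under median-of-ratios and quantile scaling and after removal of the length trend. Hsp90aa1, Cct5 and Hspa8 gave adjusted p of 0.996, 0.618 and 0.612 at this stage.

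Wild-type maturation moved the roles in opposite directions. From GV to MII 30 members rose and 19 fell, against 25.2% and 28.5% of all symbols, with medians of 0.22 and -0.02. All 3 HSP90 genes and both mitochondrial chaperonin genes rose, and 6 of 8 CCT genes fell. Besides Hsp90aa1, Dnajc21, Hsp90b1 (2.62 ± 0.49, adjusted p = 0.00058) and Dnaja4 (1.75 and 1.52 to 17.0 and 15.4 FPKM, 2.71 ± 0.28, adjusted p = 3.29e-06), Dnajc3 was among the 5 largest rises (6.43 and 8.63 to 38.4 and 56.4, 2.49 ± 0.35, adjusted p = 5.98e-05). The 5 largest falls were those of Dnajc15 (-5.78 ± 0.54, adjusted p = 1.5e-06), Cct5 (-3.39 ± 0.15, adjusted p = 1.54e-09), Dnajc24 (5.17 and 6.93 to 0 and 0.88 FPKM, -2.35 ± 0.43, adjusted p = 0.000465), Dnajb1 and Dnajc11. Markers of granulosa and cumulus cells, 14 in all, summed to 73.8 and 83.8 FPKM in wild-type GV oocytes, with Has2, Ptx3 and Tnfaip6 at 0, and to 11.1 and 5.92 at MII, with 6 markers at 0, and their part in the GV to MII changes was not tested. The rises of Hspe1 (0.50) and Hspa9 (0.53) each ended when single libraries were left out, with adjusted p up to 0.18 and 0.111.

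The difference between genotypes in this step was tested directly, and it passed for 41 of 71 members, 23 of which changed more upward in Btg4-/- and 18 more downward, against 26.5% and 16% of all symbols. Under median-of-ratios or quantile scaling these became 16 and 19. Dnajc15 (4.45 ± 0.77), Cct5 (4.40 ± 0.21), Dnajb2 (3.29 ± 0.60), Cct2 (3.08 ± 0.29) and Dnajc11 (2.88 ± 0.22) led the first, and Hsp90b1 (-3.49 ± 0.70), Dnajc21 (-2.92 ± 0.26), Hspa14 (-2.85 ± 0.33), Dnajb4 (-2.43 ± 0.14) and Hsp90ab1 (-2.28 ± 0.23) the second. Hspa14 thus went in Btg4-/- from 44.1 and 44.3 FPKM at GV to 7.63 and 4.98 at MII while wild type went from 56.5 and 50.7 to 58.7 and 64.1. Cct5 went from 201 and 182 to 387 and 384 in Btg4-/- while wild type went from 204 and 224 to 20.9 and 18.2.

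Fertilization brought smaller shifts. From MII to zygote in wild type 22 members rose and 5 fell, against 20.5% and 8% of all symbols, with medians of 0.33 and 0.22. Under median-of-ratios scaling 12 rose and 5 fell, and leaving out single libraries gave 11 to 16 rises. Dnajc7 rose from 16.9 and 11.6 to 42.6 and 51.0 FPKM (1.66 ± 0.20, adjusted p = 9.62e-05) and Cct3 from 22.5 and 17.8 to 63.8 and 50.6 (1.46 ± 0.17, adjusted p = 7.67e-05). The other 3 of the 5 largest rises, Dnajc15 (2.00), Dnajb12 (1.59) and Dnajb2 (1.37), each ended when single libraries were left out: without wild-type MII library 2 for Dnajc15 (adjusted p = 0.168) and Dnajb2 (adjusted p = 0.225), without wild-type zygote library 1 for Dnajc15 (adjusted p = 0.108) and Dnajb2 (adjusted p = 0.152), and without wild-type zygote library 2 for Dnajb12 (adjusted p = 0.0748) and Dnajb2 (adjusted p = 0.0705). Among the falls, Hspb11, which acts in ciliary transport, went from 16.3 and 19.3 to 2.69 and 3.37 FPKM (-2.22 ± 0.39, adjusted p = 0.00119), Hspb1, the small heat shock protein HSP25, from 36.5 and 27.8 to 10.2 and 5.89 (-1.90 ± 0.33, adjusted p = 0.00112), Dnajc10 from 26.4 and 39.4 to 8.02 and 8.83 (-1.82 ± 0.26, adjusted p = 0.000327) and Hspe1 from 237 and 265 to 106 and 78.9 (-1.44 ± 0.19, adjusted p = 0.000165). The fifth, Dnajb11, fell by 0.98 ± 0.26 (adjusted p = 0.0132), a call lost without wild-type MII library 1 (adjusted p = 0.0519), wild-type MII library 2 (adjusted p = 0.0641) or wild-type zygote library 1 (adjusted p = 0.109).

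In zygotes Cct5 and Hspa8 led the members higher in Btg4-/-, and Hsp90b1 and Hspa14 those lower. The 5 largest negative changes were Hsp90b1, Hspa14, Dnajc21 (-3.13 ± 0.18, adjusted p = 4.75e-08), Dnajc13 (7.84 and 11.6 against 1.2 and 0.658 FPKM, -2.46 ± 0.29, adjusted p = 1.77e-05) and Hspd1. The 5 largest positive changes were Cct5, Hspa8, Hspb11 (2.69 and 3.37 against 24.0 and 23.7 FPKM, 2.63 ± 0.39, adjusted p = 0.000105), Cct2 (2.57 ± 0.21, adjusted p = 5.88e-07) and Tcp1 (2.48 ± 0.16, adjusted p = 1.24e-07). The direct test of the genotype difference in the MII to zygote step passed for 11 members, 4 upward and 7 downward, against 4.95% and 7.25% of all symbols; under quantile normalization these were 7 and 4, and after removal of the length trend 8 and 7. Hspa8 was among them (1.02 ± 0.21, adjusted p = 0.00868).

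In the zygote to 2-cell step 14 members rose and 33 fell in wild type, against 27.1% and 30.2% of all symbols, with medians of -0.60 for members and -0.06 for all. Dnajb9, an endoplasmic reticulum partner of Hspa5, went from 4.05 and 1.05 FPKM to 182 and 245 (6.05 ± 0.33, adjusted p = 1.2e-08). Cct6a followed with 4.44 ± 0.33 (adjusted p = 1.67e-07). Dnajb14, also of the endoplasmic reticulum, went from 0.227 and 1.06 to 16.1 and 18.5 FPKM (3.52 ± 0.38, adjusted p = 4.79e-06) and Hspbp1 from 0.291 and 0 to 6.79 and 8.84 (2.95 ± 0.41, adjusted p = 4.58e-05). Dnajc12 was listed at 0 in both wild-type zygote libraries and at 6.65 and 2.57 FPKM at 2-cell (adjusted p = 1.04e-05). It entered the tests only through this wild-type 2-cell group, as did Dnajc27 (mean 1.54 FPKM) and Hspb8 (mean 1.27 FPKM). All of these are counted among the members that rose in this step and among those lower in Btg4-/- at 2-cell.

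None of these members reached the same level in Btg4-/- 2-cell embryos. Dnajb9 was at 15.6 and 17.5 FPKM there, below both wild-type libraries (-3.60 ± 0.33, adjusted p = 1.84e-06). Like Hspa5, Dnajb9 had been higher in Btg4-/- at MII (2.11 ± 0.33, adjusted p = 0.000145) and in zygotes (1.96 ± 0.33, adjusted p = 0.000327). The zygote call of Dnajb9 ended with the groups compared alone (adjusted p = 0.0648). Dnajb14 was at 0.992 and 0.713 (-3.31 ± 0.38, adjusted p = 1.26e-05), Hspbp1 at 0.425 and 0 (-2.87 ± 0.41, adjusted p = 8.09e-05), and Dnajc12 was listed at 0 in both. Hspa1a, one of the stress-inducible HSP70 genes whose promoters are printed above, was at 0.287 and 0.671 FPKM in wild-type zygotes and 8.19 and 2.66 at 2-cell (1.98 ± 0.35, adjusted p = 0.000342), against 0.350 and 0.188 in Btg4-/- 2-cell embryos (-2.2 ± 0.35, adjusted p = 0.000208). Both calls of Hspa1a ended with the groups compared alone (adjusted p = 0.0588 for the step and 0.0664 between genotypes). Hspa1b, its near-identical neighbour, was at 0.786 and 0.446, then 6.27 and 3.63 (1.85 ± 0.28, adjusted p = 0.000106), against 0.905 and 0.187 (-1.95 ± 0.28, adjusted p = 9.89e-05), and the genotype call likewise ended with the groups compared alone (adjusted p = 0.0509). The wild-type and Btg4-/- libraries did not overlap for either gene, though the pair of wild-type libraries differed from each other more for Hspa1a. Hspb1 was at 29.7 and 32.3 FPKM against 15.4 and 15.6 (-0.95 ± 0.33, adjusted p = 0.0285), a call that ended with any of the 4 2-cell libraries left out (adjusted p from 0.088 to 0.131) or without the filter (adjusted p = 0.0504).

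**Figure D4:**
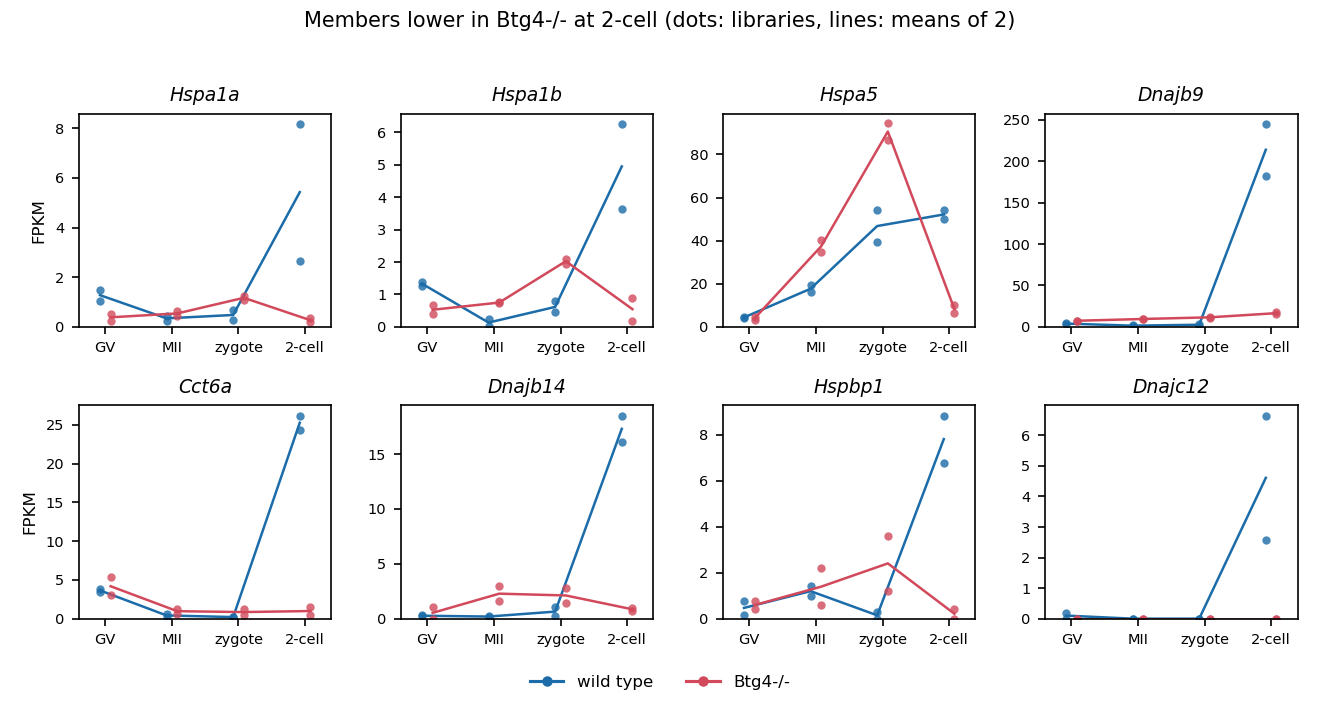
FPKM by stage of 8 members that were lower in Btg4-/- at the 2-cell stage, wild type in blue and Btg4-/- in red, with a dot for each library and a line through the means of 2. Dnajb9 reaches 182 and 245 FPKM in wild-type 2-cell embryos against 15.6 and 17.5 in Btg4-/-, and Hspa5 is higher in Btg4-/- at MII and in zygotes and lower at 2-cell.

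Over all members at 2-cell, 22 were higher and 20 lower in Btg4-/-, against 22.6% and 26.4% of all symbols. The 5 with the largest positive change were Dnajc19, Hspb11 (1.62 and 6.19 against 43.6 and 31.0 FPKM, 3.12 ± 0.39, adjusted p = 2.47e-05), Hspe1, Cct5 and Cct2 (2.37 ± 0.21, adjusted p = 1.09e-06). Dnajc19, of the mitochondrial import motor, was at 4.64 and 7.84 FPKM in wild-type and 123 and 164 in Btg4-/- 2-cell embryos (4.34 ± 0.33, adjusted p = 3.15e-07). Its locus overlaps Fxr1, which read 52.9 and 76.7 FPKM in wild-type and 69.9 and 82.9 in Btg4-/- 2-cell embryos. The falls from zygote to 2-cell in wild type were led by Hsp90aa1, Dnajb4 (-3.70 ± 0.10, adjusted p = 5.86e-11), Dnajc3 (42.4 and 68.7 to 5.57 and 6.79 FPKM, -2.94 ± 0.35, adjusted p = 1.32e-05), Dnajc17 (20.1 and 16.8 to 6.15 and 0, -2.86 ± 0.67, adjusted p = 0.00273) and Dnajc2 (49.6 and 60.4 to 5.27 and 9.86, -2.76 ± 0.31, adjusted p = 6.84e-06). Markers of the 2-cell embryo, 11 in the files, summed to 305 and 215 FPKM in wild-type 2-cell libraries, with Tcstv1 and Tcstv3 at 0, and to 14.9 and 19.6 in Btg4-/-, with Tcstv1, Tcstv3 and Tdpoz3 at 0, and their part in these differences was not tested.

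The genotype difference in the zygote to 2-cell step passed for 43 members, 21 upward and 22 downward in Btg4-/- relative to wild type, against 22.2% and 25.9% of all symbols. Dnajb9 (-5.56 ± 0.47), Hspbp1 (-4.36 ± 0.58), Cct6a (-4.36 ± 0.46), Dnajb14 (-4.24 ± 0.53) and Hspa5 (-3.51 ± 0.32) had the largest negative values. Hspa14 (3.56 ± 0.33), Hsp90b1 (3.32 ± 0.70), Dnajc8 (3.25 ± 0.24), Dnaja1 (3.14 ± 0.28) and Dnajc21 (3.01 ± 0.26) had the largest positive ones. Dnajc8, a splicing factor, fell in wild type from 376 and 401 to 67.2 and 60.1 FPKM and went from 87.1 and 119 to 155 and 168 in Btg4-/-. All 3 HSP90 genes were on the positive side.

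Promoter letters were compared over the bases before each start, on both strands. GAANNTTC occurred in 14.9% of the 87 promoters of members and in 6.69% of all 32851 promoters of the table. Among promoters of members that rose from zygote to 2-cell in wild type it occurred in 6 of 12, among those that fell in 4 of 37, and among those that did not pass in 2 of 25. By gene these were 5 of 11, 4 of 27 and 2 of 20, with the near-identical Hspa1a and Hspa1b counted as separate genes. Some members had no promoter entry, so these shares do not cover them. Among these, Cct4, Dnajc12 and Dnajc30 rose, and Hsp90aa1, Hsp90ab1 and Hspa8 fell. The 5 risers that hold it were Hspa1a, Hspa1b, Hspb1, Dnajb6 (in both of its promoters) and Dnajc27. Dnajc27 entered the tests only through the wild-type 2-cell group, in which it was called higher, as did Hspb8, a riser without the motif. TTCNNGAA, which can overlap GAANNTTC, occurred in 10.3% of member promoters and 7.17% of all, and CCAAT or ATTGG in 36.8% and 33.8%. By gene, TTCNNGAA went the other way, with 1 of 11 that rose, 5 of 27 that fell and 1 of 20 that did not pass. Either GAANNTTC or TTCNNGAA occurred in 5 of 11, 8 of 27 and 2 of 20, and in 14.5% of all genes with a promoter entry. Hspa5 holds CCAAT or its complement 4 times, starting 214, 186, 98 and 65 bases before the RefSeq start. These are matches of letters, not tested sites.

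Genes around the family were read from lists by function. The first list held the heat shock factors Hsf1, Hsf2 and Hsf5, and Hsf2bp and Hsbp1, which are named for binding such factors. Of these 5 tested genes, 0 were higher and 5 lower in Btg4-/- at MII, against 29.1% and 23.3% of all symbols. At 2-cell 3 were higher and 1 lower, against 22.6% and 26.4%. Hsf1, the stress-responsive factor, was at 28.8 and 30.9 FPKM in wild-type and 15.1 and 14.9 in Btg4-/- MII oocytes (-0.94 ± 0.20, adjusted p = 0.00139), Hsf5 at 15.6 and 18.4 against 3.88 and 4.94 (-1.73 ± 0.26, adjusted p = 0.00011), and Hsf2 at 1.8 and 1.79 against 0.671 and 0.0834 (-1.06 ± 0.36, adjusted p = 0.0252). Hsf1 was already lower in Btg4-/- at GV (-0.79 ± 0.20, adjusted p = 0.0307). Its genotype difference in the GV to MII step did not pass (-0.15 ± 0.28, adjusted p = 0.71). Of 24 co-chaperones of HSP70 and HSP90, 12 were higher and 5 lower at MII, against the same 29.1% and 23.3%. Bag4, a nucleotide exchange factor, was higher (2.47 ± 0.13, adjusted p = 9.25e-09), as was the TPR protein Ttc4 (2.95 ± 0.21, adjusted p = 1.34e-07). Fkbp5 (109 and 124 against 16.9 and 23.9 FPKM, -2.48 ± 0.18, adjusted p = 2.14e-07), Ahsa1, which stimulates the HSP90 ATPase (146 and 175 against 76.6 and 69.6, -1.12 ± 0.16, adjusted p = 6.4e-05), and Tomm34 (-2.44 ± 0.41, adjusted p = 0.000258) were lower, as the HSP90 genes were.

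Prefoldin hands actin and tubulin to CCT, and of 13 tested prefoldin subunits and CCT partners 8 were higher and 4 lower at MII, against 29.1% and 23.3% of all symbols. Mkks (3.14 ± 0.25, adjusted p = 3.25e-07), Vbp1 (18.5 and 17.8 against 95.9 and 103 FPKM, 2.39 ± 0.21, adjusted p = 9.48e-07) and Txndc9 (1.99 ± 0.16, adjusted p = 4.11e-07) were higher. Pfdn4 was lower, at 522 and 548 FPKM in wild-type against 49.9 and 50.1 in Btg4-/- MII oocytes (-3.39 ± 0.17, adjusted p = 8.4e-09), and so were Pdcl3 (-1.0 ± 0.17, adjusted p = 0.000257) and Pdcl (-2.14 ± 0.40, adjusted p = 0.000577). Of 19 genes of endoplasmic reticulum folding, against the same shares of all symbols, 6 were higher, with Calr (1.44 ± 0.12, adjusted p = 4.87e-07), Atf4 (1.65 ± 0.15, adjusted p = 1.54e-06) and Manf (1.55 ± 0.18, adjusted p = 9.35e-06) leading, and 6 were lower, with Eif2ak3 (-2.46 ± 0.25, adjusted p = 3.34e-06), Hyou1 (-2.11 ± 0.22, adjusted p = 4.3e-06) and Sec61b (-1.35 ± 0.17, adjusted p = 2.52e-05). At GV, Eif2ak3 was already lower (-1.59 ± 0.25, adjusted p = 0.00303) and Manf already higher (0.81 ± 0.18, adjusted p = 0.0157) in Btg4-/-. The genotype difference in the GV to MII step did not pass for Eif2ak3 (adjusted p = 0.0673) and passed for Manf (0.73 ± 0.25, adjusted p = 0.0313). Of 12 mitochondrial folding and protease genes 8 were higher and 0 lower, against 29.1% and 23.3% of all symbols, among them Trap1, the mitochondrial HSP90 (2.06 ± 0.25, adjusted p = 1.38e-05), Phb (1.10 ± 0.13, adjusted p = 1.64e-05) and Grpel1 (1.49 ± 0.22, adjusted p = 9.17e-05). Of the mitochondrial members named above, Hspa9 and Hspd1 were lower at MII. Hspe1 (0.87), Dnaja3 (1.62), Dnajc11 (2.27), Dnajc15 (4.72) and Dnajc19 (1.89 ± 0.33, adjusted p = 0.000318) were higher. The Dnajc19 call ended with the groups compared alone (adjusted p = 0.0654).

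In the Erk experiment there was 1 library per group, so these are values without a replicate check or a test, and a 2-fold change on the log2(FPKM + 1) scale serves only to describe. In wild type 6 of 67 members were past 2-fold higher at MII than at GV and 39 lower, against 20.4% and 46.9% of 11404 symbols, with medians of -2.02 and -0.76. In Erk-/- oocytes 10 were higher and 31 lower, against 23.9% and 33.4%, with medians of -0.67 and -0.09. Cct5 went from 233 to 0.0552 FPKM in wild type and from 214 to 15.6 in Erk-/-. Hspa8 went from 655 to 12.0 and from 572 to 32.0, and Hsp90b1 from 203 to 4.09 and from 174 to 55.1. For these 3 genes the Erk-/- value lay above wild type at MII. The wild-type MII library stood apart, with 7265 symbols at 1 FPKM or more against 8909 to 9253 in the other 3 Erk libraries, and its part in these differences was not tested.

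Hsp90aa1 took opposite courses in the wild-type oocytes of the 2 experiments. It went from 1067 FPKM at GV to 14.5 at MII in the Erk experiment, and from 46.3 and 56.5 to 1265 and 1324 in the Btg4 experiment. Hsp90ab1 rose in both on values, from 247 to 439 FPKM here. Hspa5 went from 231 to 18.1 here and from 4.54 and 4.19 to 16.1 and 19.2 there. The files were made per library and the experiments were not tested against each other, so these levels stand side by side only, and the difference in course was not tested. Sperm and spermatid markers, 9 in the files, summed to 72.9 to 125 FPKM in the Erk libraries with Prm1, Tnp1, Tnp2, Smcp, Spem1 and Akap4 at 0, and to 3.97 to 15.6 in the Btg4 libraries. In each Erk library 7 of the 9 were at 0, so the sum rested on Odf2 together with Prm2 or Odf1. The source of these transcripts was not tested.

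**Figure D5:**
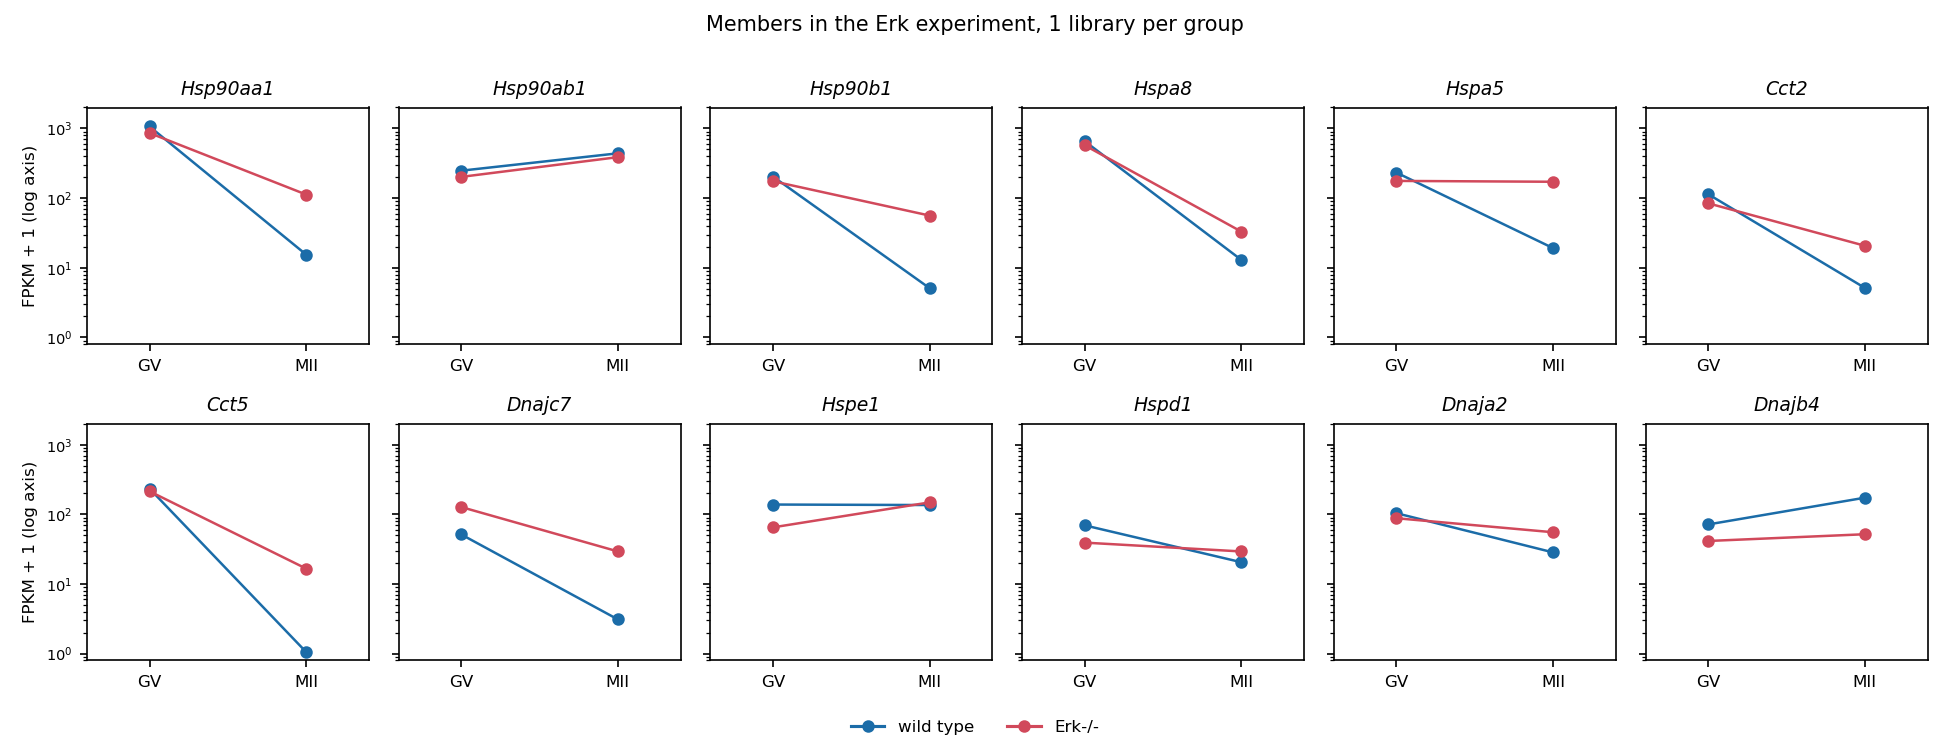
FPKM + 1 on a log axis for 12 members in the Erk experiment, 1 library per group, wild type in blue and Erk-/- in red. For Hsp90aa1, Hsp90b1, Hspa8, Hspa5, Cct2, Cct5 and Dnajc7 the red line ends above the blue one at MII, and for Dnajb4 it ends below, at 50.8 against 173 FPKM.

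At MII, 23 members were past 2-fold higher in Erk-/- than in wild type and 1 lower, against 30.7% and 8.08% of symbols, with medians of 0.60 and 0.26. The 5 largest differences were those of Cct5 (3.98), Hsp90b1 (3.46), Dnajc7 (2.10 against 28.4 FPKM, 3.24), Hspa5 (18.1 against 171, 3.17) and Hsp90aa1 (14.5 against 112, 2.86). Dnajb4 (-1.74) was the member past 2-fold lower. Hspbap1 (-0.93), Hspa14 (97.8 against 60.8, -0.68), Dnajc8 (-0.63) and Cct4 (-0.60) were next. At GV 15 were higher and 10 lower in Erk-/-, against 18.7% and 23.5%, with Hspb1 at 88.5 against 6.60 FPKM and Hspa2 listed at 0 against 5.95. Apart from those named, the widest GV to MII changes were in Dnajc15 (66.7 to 0 in wild type, 15.3 to 0 in Erk-/-), Hspa14 (8.75 to 97.8), Hspa12a (0 to 8.18), Hspb11 (0 to 14.1), Dnajc8 (48.9 to 161) and Dnajc3 (15.6 to 46.1) in wild type. In Erk-/- they were in Hspa4 (61.6 to 2.08 FPKM), Dnajc2 (43.9 to 1.26), Dnajc25 (16.4 to 0), Hspb11 (0 to 13.3), Hspa13 (0.688 to 5.44), Hspa12a (1.61 to 7.96), Hspa14 (18.9 to 60.8) and Dnajc13 (18.7 to 53.8).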

How the data were processed

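The authors deposited 1 table of FPKM per library; the submitters' processing notes name CASAVA 1.8, TopHat, Cufflinks and the mm9 build, and strand use is not given in the sources used here. Symbols with several loci were summed (260 symbols, no member). Values were taken as log2(FPKM + 1). Symbols with a group mean of at least 1 FPKM in 1 of 8 groups (12311) were fitted with limma 3.58.1 in R 4.3.3, with 1 mean per group over all 16 Btg4 libraries, and p-values were adjusted by Benjamini-Hochberg over all of them, with a threshold of 0.05. Fragments per library were estimated from the deposited confidence intervals. The Erk libraries were described without a test. On simulated data for the MII comparison over 12311 genes, 61% of changes of 1 and 90% of changes of 2 (log2) were recovered, and 5.6% of calls were false. The changed genes were drawn only from those above a set level in wild-type MII. The recovery therefore does not cover members that are low at that stage.

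The members and lists were chosen with earlier results of these data known. The text names a fixed set of members by role, the 5 largest changes in each direction per tested comparison, the 5 largest each way from GV to MII in each genotype of the Erk experiment and between its genotypes at MII among members at 5 FPKM or more in 1 of 2 libraries, and up to 3 genes per list and direction with the smallest p at MII. Alternatives were a pseudocount of 0.1, no filter, median-of-ratios scaling, quantile normalization, groups compared alone, a replicate block, removal of a transcript length trend and leaving out each library. The check of the targeted gene in the Erk experiment and 1 co-chaperone are not reported here.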

Additional observations from a re-analysis of the deposited data

Results flagged for a closer look

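These members changed differently in the 2 genotypes within a step, by limma's test of that difference with adjusted p under 0.05; each value is the log2 change in Btg4-/- minus that in wild type. From GV to MII the values were -3.49 for Hsp90b1, -2.92 for Dnajc21, -2.85 for Hspa14, -2.43 for Dnajb4 and -2.28 for Hsp90ab1. In the same step they were 4.45 for Dnajc15, 4.40 for Cct5, 3.29 for Dnajb2, 3.08 for Cct2 and 2.88 for Dnajc11.

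From MII to zygote the values were -2.77 for Dnajc15, -1.56 for Dnajc9, -1.38 for Cct3, -1.15 for Dnajc7 and -1.01 for Dnajc14. On the positive side they were 1.83 for Hspb1, 1.79 for Dnajc10, 1.02 for Hspa8 and 0.92 for Dnajb4. The calls of Dnajc15, Dnajc7, Dnajc14 and Hspb1 in this step ended under at least 1 alternative.

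From zygote to 2-cell the values were -5.56 for Dnajb9, -4.36 for Hspbp1, -4.36 for Cct6a, -4.24 for Dnajb14 and -3.51 for Hspa5. On the positive side they were 3.56 for Hspa14, 3.32 for Hsp90b1, 3.25 for Dnajc8, 3.14 for Dnaja1 and 3.01 for Dnajc21.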

How the results depend on the processing

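Of 210 named values that passed, 199 kept their call with a pseudocount of 0.1, 199 without the filter, 193 under median-of-ratios scaling, 196 under quantile normalization, 159 with groups compared alone and 210 with a replicate block. After removal of the transcript length trend 191 of 206 kept it, and Hspe1 at MII turned to -0.14. With groups compared alone limma called 0 members higher and 0 lower at GV (18 members at unadjusted p under 0.05), 11 lower at 2-cell, and 3 higher and 3 lower from MII to zygote, where the calls of Dnajc7 (adjusted p = 0.0508) and Hspb1 (0.063) ended; that of Dnajc17 from zygote to 2-cell ended too (0.112). The GV count of lower members was 0 under median-of-ratios scaling, quantile normalization and the length correction, and the MII to zygote rises were 12 under the first and the last. The genotype difference in that step gave 7 higher and 4 lower under quantile normalization and 8 higher after the length correction. Leaving out single libraries gave 0 to 2 higher and 0 to 1 lower at GV, 11 to 16 rises from MII to zygote, and 3 to 7 lower for the genotype difference in that step; a lone library is then assumed to vary like the other groups. The cause was not tested. Replicate numbers do not pair the samples (correlations of deviations -0.010, 0.021, 0.045 and 0.018 between genotypes at GV, MII, zygote and 2-cell; from -0.002 to 0.123 between successive stages); the replicate block gave 24 higher and 17 lower at MII. With 2 libraries per group, the simulated comparison at MII recovered 61% of log2 changes of 1, among genes above a set level in wild-type MII.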
